A study of Mus musculus with 48 samples.

Results

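The question was whether loss of the interleukin-33 (IL-33) receptor changed how gene expression shifted as splenic precursors became red pulp macrophages (RPMs). It was asked of 16 of the 48 samples of the series: RNA-seq of pre-RPMs and of RPMs, each from 4 WT mice and 4 mice labelled IL1RL1-/-. Every gene was read through 1 quantity, the RPM minus pre-RPM change in the mice labelled IL1RL1-/- minus the same change in WT mice, in log2 units and called the difference of changes below. WT mice were male Balb/c of 10 weeks, and the mutants were male and 10 weeks old on the Balb/c background. Pre-RPMs were sorted from spleen as Ly6Glo CD11bhi F4/80lo cells and RPMs as Ly6Glo CD11blo/- F4/80hi cells. The -/- label names no cell type, so an effect inside macrophages and one of other IL-33-responsive cells cannot be told apart.

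RPMs are resident macrophages of the spleen that engulf ageing red cells, break down heme and return iron to the blood, and they arise in part from monocytes through a pre-RPM stage. IL1RL1 (ST2) is the receptor chain that binds IL-33, an alarm cytokine released by damaged cells, and it signals through the adaptor MyD88. Maturation from pre-RPM to RPM is known for the loss of CD11b and other monocyte genes and for the gain of Spic, the transcription factor that RPMs need, with genes for heme and iron handling.

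The 16 libraries held 3769757 to 5326720 counts (median 4695913.5) over 18917 to 21315 genes, and 3 counts, used as the floor, corresponded to 0.563 to 0.796 CPM (counts scaled to a common library total). A single gene, Gm42418, took 24.4% to 38.8% of the counts of a library. Levels are given as CPM scaled by the trimmed mean of M values, listed for mice 1, 2, 3 and 4, with the mean ± SD over 4 mice, and compare 1 gene between groups, not genes with one another. RNA of sorted cells was pooled within a library, so fewer cells that express a gene and less RNA per cell cannot be told apart. In 1 library, WT pre-RPM replicate 3, the summed level of 20 RPM identity genes was 529 CPM, against 275 to 308 CPM in the other 3 WT pre-RPM libraries, and results that rest on it are also given without it. WT RPM replicates 1 and 2 had higher sums of lymphocyte genes than replicates 3 and 4: B cell genes summed to 418 and 720.2 against 255 and 230.1 CPM, T cell genes to 155 and 179 against 59.3 and 82.5 CPM, and NK cell genes to 71 and 99.2 against 35.3 and 35.6 CPM. RPM replicates 1 and 2 labelled IL1RL1-/- also had the higher sums of their group, at 229.9 and 134.9 against 90.5 and 102 CPM for B cell genes. T cell genes summed there to 127 and 75.4 against 64.9 and 72.1 CPM, and NK cell genes to 40.5 and 36.0 against 18.0 and 22.1 CPM. Several results are also given without the WT pair of libraries (a fit added after seeing the data, with 2 WT RPM libraries left). That fit kept replicates 1 and 2 with the label, so it did not treat the genotypes alike.

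The changes of the 2 genotypes ran together. Across the 12150 genes tested, the WT change and the change in libraries labelled IL1RL1-/- had a Pearson r of 0.946, as a description across genes that share their libraries. Of 2863 genes with a change of more than 2-fold in both genotypes, 2858 changed in the same direction. Over all genes the difference of changes had a median of 0.01 and lay between -0.80 and 0.73 for the central 90% of genes. At an adjusted p under 0.05 (edgeR quasi-likelihood test, Benjamini-Hochberg over all genes), 13 genes differed, which is 0.107% of those tested. For 8 of them (0.0658%) the change was higher in the libraries labelled IL1RL1-/-, and for 5 (0.0412%) it was lower. At an unadjusted p under 0.05 there were 914 genes (7.52%), 450 (3.70%) with a higher and 464 (3.82%) with a lower change. In 12 of the 13 genes the changes of the 4 mice of 1 genotype did not overlap those of the other, as was so for 4.47% of all genes tested. With the 2 libraries of a mouse treated as a pair (animal as a block), 36 genes (0.296%) passed, 12 of the 13 among them. Where an adjusted p with the block is given below, the difference of changes beside it is still that of the fit without the block.

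**Figure D1:**
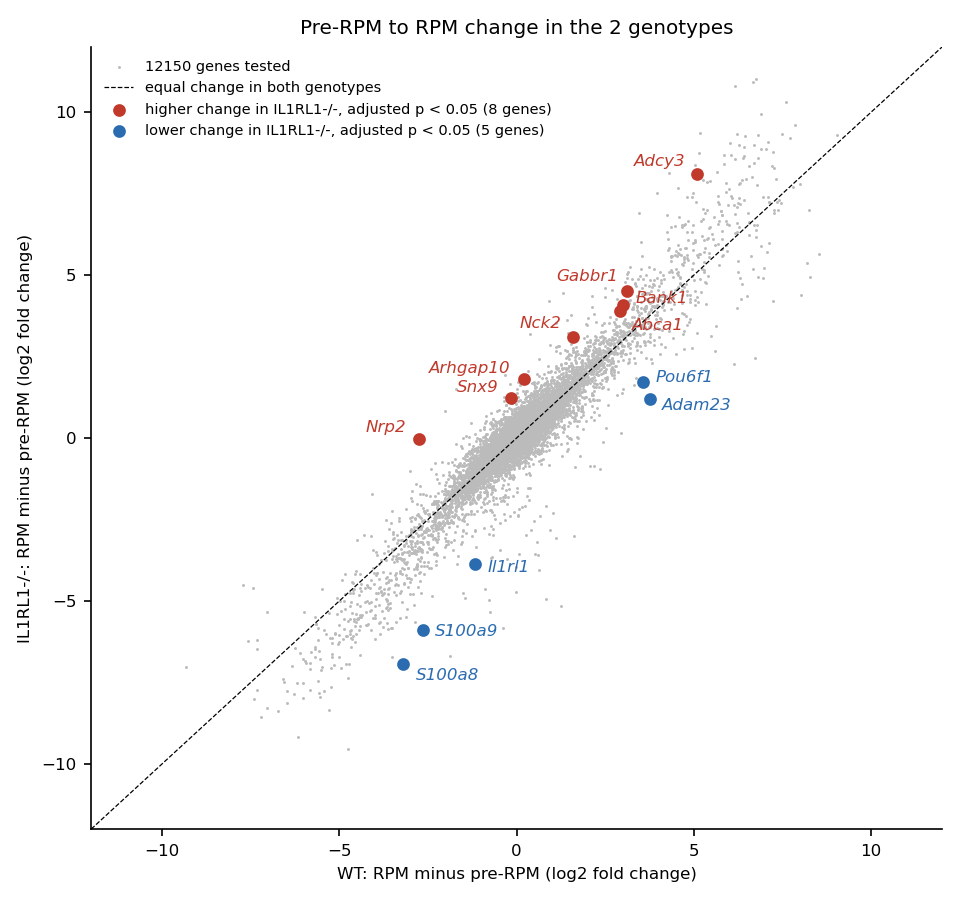
Change from pre-RPM to RPM (log2 fold change) of the 12150 genes tested in WT mice (horizontal axis) and in mice labelled IL1RL1-/- (vertical axis), 4 mice each, with the 8 genes of higher and the 5 of lower change named. Most genes lie along the dashed line of equal change, and Nrp2, S100a8 and Adcy3 lie far from it.

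Il1rl1, the targeted gene (chromosome 1, 40429570 to 40465415, plus strand, GRCm38), went against the label in pre-RPMs. It stood at 4.14, 3.93, 3.14 and 5.62 CPM in WT pre-RPMs (4.21 ± 1.04) and at 1.01, 1.74, 1.8 and 2.86 CPM in WT RPMs (1.86 ± 0.76). In the libraries labelled IL1RL1-/- it was at 11.7, 12.7, 12.4 and 12 CPM in pre-RPMs (12.2 ± 0.441) and at 0.215, 1.1, 0.636 and 1.23 CPM in RPMs (0.793 ± 0.461). All 4 pre-RPM libraries labelled IL1RL1-/- were therefore above all 4 WT ones, while the RPM values overlapped and were low in both genotypes. The difference of changes was -2.67 ± 0.48 (SE; adjusted p = 0.0197, edgeR), a steeper fall in the libraries labelled IL1RL1-/-. The counts are summed over all exons of the gene, so a transcript that lacks some exons is still counted, and the exons removed in these mice were not examined here. The call was lost without WT RPM replicate 4 (adjusted p = 0.0674) and without IL1RL1-/- RPM replicate 3 (adjusted p = 0.0638). It was also lost in 6 of the 8 fits that left out both libraries of a mouse, those without IL1RL1-/- mouse 1, 2 or 3 or WT mouse 2, 3 or 4 (edgeR adjusted p up to 0.117). Because of this gene, "labelled IL1RL1-/-" is used for these libraries throughout.

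Among the other receptor and signalling genes of IL-33, no further difference passed. The list of 17 held Il1rl1, its partner chain Il1rap, IL-33 itself and the MyD88, kinase and NF-kappaB steps below them. Of 16 tested, 1 gene (Il1rl1) was called, the median difference of changes was 0.03 beside 0.01 over all genes, and Il33 was at 0 counts in 3 of the 4 groups.

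Nrp2 was the gene with the smallest p. It encodes neuropilin 2, a surface receptor for semaphorins and vascular endothelial growth factors, and lies on chromosome 1 (62703285 to 62818695, plus strand). In WT mice it was at 17.2, 14.2, 24.1 and 15.4 CPM in pre-RPMs (17.7 ± 4.44) and 2.43, 3.68, 2.06 and 2.2 CPM in RPMs (2.59 ± 0.741). With the IL1RL1-/- label it was at 12.4, 11.1, 6.47 and 10.5 CPM in pre-RPMs (10.1 ± 2.56) and 13.3, 8.46, 10.4 and 8.58 CPM in RPMs (10.2 ± 2.28). So the drop that all 4 WT mice had was missing: the WT change was -2.74 and the other -0.02, and the difference of changes was 2.72 ± 0.34 (SE; 95% interval 2.02 to 3.42; adjusted p = 0.00118, edgeR).

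Snx9 and Arhgap10 were set apart in RPMs, where the libraries labelled IL1RL1-/- were higher. Snx9 encodes a sorting nexin of clathrin-mediated endocytosis (chromosome 17, 5841329 to 5931954, plus strand). Its WT values were 30.3, 16.8, 23.2 and 28.3 CPM in pre-RPMs and 24.7, 18.4, 24 and 21.1 CPM in RPMs. With the label IL1RL1-/- they were 24.6, 26, 31.8 and 26.9 CPM and 66.1, 64.3, 62.3 and 60.9 CPM, so the RPM libraries of the genotypes were widely apart and the pre-RPM ones overlapped. The difference of changes of Snx9 was 1.39 ± 0.20 (SE; adjusted p = 0.00484, edgeR). Arhgap10, a GTPase-activating protein (chromosome 8, 77250366 to 77517953, minus strand), had 8.27, 5.51, 5.55 and 10.5 CPM in WT pre-RPMs and 9.74, 7.95, 7.47 and 9.68 CPM in WT RPMs. The corresponding levels with the label were 4.92, 3.69, 4.41 and 6.46 CPM and 16.1, 18.6, 16.3 and 17 CPM. Its 4 RPM values lay above every WT one and its pre-RPM values overlapped the lower WT ones. For Arhgap10 the difference of changes was 1.58 ± 0.29 (SE; adjusted p = 0.0246, edgeR) and the call was lost without any 1 of 9 libraries: WT pre-RPM replicate 1 or 4, WT RPM replicate 2, IL1RL1-/- pre-RPM replicate 1, 2 or 3, and IL1RL1-/- RPM replicate 2, 3 or 4 (adjusted p up to 0.103).

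In 5 further genes the pre-RPMs labelled IL1RL1-/- had the lower mean, so that the change to RPMs was higher. Gabbr1, a subunit of the GABA-B receptor (chromosome 17, 37045966 to 37075067, plus strand), was at 8.27, 9.44, 7.24 and 10.8 CPM in WT pre-RPMs and 3.05, 3.18, 4.12 and 2.95 CPM in those with the label. In RPMs it was at 77.6 ± 5.16 CPM in WT and 74.6 ± 10.3 CPM with the label. The difference of changes was 1.39 ± 0.22 (SE; adjusted p = 0.0065, edgeR), and it lay in the pre-RPMs, where the genotypes did not overlap. Bank1, a B cell scaffold protein that RPMs also carried at high levels here (chromosome 3, 136053363 to 136326066, minus strand), went from 22.8, 22.5, 20.7 and 22 to 176, 168, 200.3 and 168 CPM in WT mice and from 12.2, 12.1, 7.65 and 13.3 to 173, 202, 196 and 200.01 CPM in the others. Again the pre-RPM values were apart and the RPM values overlapped (difference of changes 1.05 ± 0.17 SE; adjusted p = 0.00881, edgeR). The summed level of 11 B cell genes, Bank1 not among them, was 198 to 264 CPM in WT pre-RPMs and 85.6 to 194 CPM in those with the label. In RPMs it was 230.1 to 720.2 CPM and 90.5 to 229.9 CPM. Much of these sums was 1 immunoglobulin gene, Ighm, at 121 to 166 CPM in WT pre-RPMs and 48.5 to 135 CPM in those with the label. Ighm was at 154 to 547 CPM in WT RPMs and 40.5 to 140 CPM in RPMs with the label. The part of B cells in the Bank1 result was not tested. Without WT RPM replicates 1 and 2 the difference of changes of Bank1 was 0.99 (edgeR adjusted p = 0.0873).

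Abca1, the transporter that exports cholesterol from macrophages (chromosome 4, 53030787 to 53159895, minus strand), was at 15.4, 17.3, 20.3 and 18.5 CPM in WT pre-RPMs and 132, 118, 138 and 149.6 CPM in WT RPMs. With the IL1RL1-/- label it started lower, at 11, 12.2, 9.12 and 12 CPM, and ended higher, at 162, 173, 176 and 154 CPM. No pre-RPM or RPM value overlapped between genotypes, and the difference of changes was 0.98 ± 0.16 (SE; adjusted p = 0.00972, edgeR). The same crossing was seen for Nck2, an adaptor that links tyrosine kinases to actin (chromosome 1, 43444579 to 43570515, plus strand). Nck2 went from 5.06, 6.55, 5.55 and 4.68 to 18.7, 16.5, 17 and 14.1 CPM in WT mice and from 2.81, 2.68, 2.35 and 3.14 to 22.2, 28.2, 22.3 and 23.7 CPM in the others (difference of changes 1.51 ± 0.24 SE; adjusted p = 0.00702, edgeR). Adcy3, an adenylyl cyclase that makes cyclic AMP (chromosome 12, 4133103 to 4213525, plus strand), was at 2.3, 3.93, 2.89 and 0.468 CPM in WT pre-RPMs and 0, 0.67, 0.294 and 0.185 CPM in those with the label, where its counts were 0, 4, 1 and 1. In RPMs it reached 80.5 ± 5.61 CPM in WT and 93.5 ± 9.66 CPM with the label. This gene had the largest p of the 13 (difference of changes 3.02 ± 0.59 SE; adjusted p = 0.0441, edgeR), the changes of its mice overlapped, and with the animal as a block the adjusted p was 0.0571. Of the 16 fits that each left out 1 library, it passed in 4, those without WT pre-RPM replicate 4, WT RPM replicate 3, IL1RL1-/- pre-RPM replicate 2 or IL1RL1-/- RPM replicate 4, and the adjusted p reached 0.147 in the other 12 (edgeR).

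Pou6f1 and Adam23 had the opposite start: the pre-RPMs labelled IL1RL1-/- were already higher. Pou6f1, a POU-domain transcription factor (chromosome 15, 100575318 to 100599984, minus strand), was at 2.76, 2.36, 1.21 and 1.64 CPM in WT pre-RPMs and 6.8, 7.37, 4.71 and 7.2 CPM in those with the label. In RPMs the means were 23.9 ± 1.66 and 22.1 ± 2.46 CPM. Its difference of changes was -1.84 ± 0.27 (SE; adjusted p = 0.00484, edgeR). Adam23, a membrane protein of the disintegrin family without protease activity (chromosome 1, 63445891 to 63596276, plus strand), was at 4.83, 6.29, 1.45 and 1.64 CPM in WT pre-RPMs and 12.7, 14.9, 14.7 and 25.1 CPM in the others. Its RPM levels were 43.2, 55, 43.8 and 48.2 CPM and 48.2, 45.8, 28.6 and 32.7 CPM. For both genes the pre-RPM values were apart and the RPM values overlapped, and the difference of changes of Adam23 was -2.56 ± 0.40 (SE; adjusted p = 0.0065, edgeR).

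S100a8 and S100a9 encode the subunits of calprotectin, an abundant protein of neutrophils and classical monocytes. In pre-RPMs S100a9 (chromosome 3, 90692632 to 90695721, minus strand) was at 34.9, 29.4, 46.1 and 24.3 CPM in WT and 35.2, 47.1, 81.5 and 62 CPM with the label. In RPMs it was at 6.49, 4.26, 3.87 and 6.6 CPM in WT and 1.72, 0.784, 0.636 and 0.613 CPM with the label. The RPM values did not overlap, while the pre-RPM values overlapped, with the higher mean in those with the label. Its difference of changes was -3.23 ± 0.52 (SE; adjusted p = 0.00758, edgeR). S100a8 (chromosome 3, 90668978 to 90670035, plus strand) was at 15.6, 17.3, 20.5 and 17.1 and 17.3, 26.3, 35 and 28.6 CPM in the pre-RPMs. WT RPMs held 8, 9, 13 and 5 counts of it and RPMs with the label 1, 2, 0 and 1, the latter all at or under the floor of 3. With 3 counts per library in their place, its fall was at least 5.03-fold steeper with the label (edgeR adjusted p of the fitted difference, 0.0112).

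The neutrophil list held both genes. Of 16 genes 11 were counted highly enough to be tested, which by itself favours genes that are high in 1 group, and 0 of these had a higher and 5 a lower change at an unadjusted p under 0.05 (3.82% of all genes were lower). The median difference of changes was -2.24, and -1.82 with the 4 members at or under the floor in 1 group set to their bound. The summed level was 313.7 to 396.0 CPM in WT pre-RPMs, 321.1 to 594.4 CPM in pre-RPMs with the label, 48.2 to 60.7 CPM in WT RPMs and 40.3 to 45.2 CPM in RPMs with the label. Most of the RPM sum was Csf3r, the G-CSF receptor, at 36.5, 37.4, 31.7 and 40.7 CPM in WT RPMs and 38.1, 40.3, 37.1 and 39.8 CPM in those with the label, for which the difference of changes was -0.05 ± 0.17 (SE). Ly6g, which defines neutrophils and was selected against by the Ly6Glo gate, had counts of 1, 0, 1 and 0 in WT RPMs and 0 in each RPM library with the label, and of 1, 0, 4 and 0 and 1, 0, 7 and 3 in the pre-RPMs. Without WT RPM replicates 1 and 2 the list median was -1.57, and the differences of S100a9 (-3.24) and S100a8 (-3.92, fitted) did not pass (edgeR adjusted p = 0.0746 for each). The part of other cells in the S100a8 and S100a9 result was not tested.

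**Figure D2:**
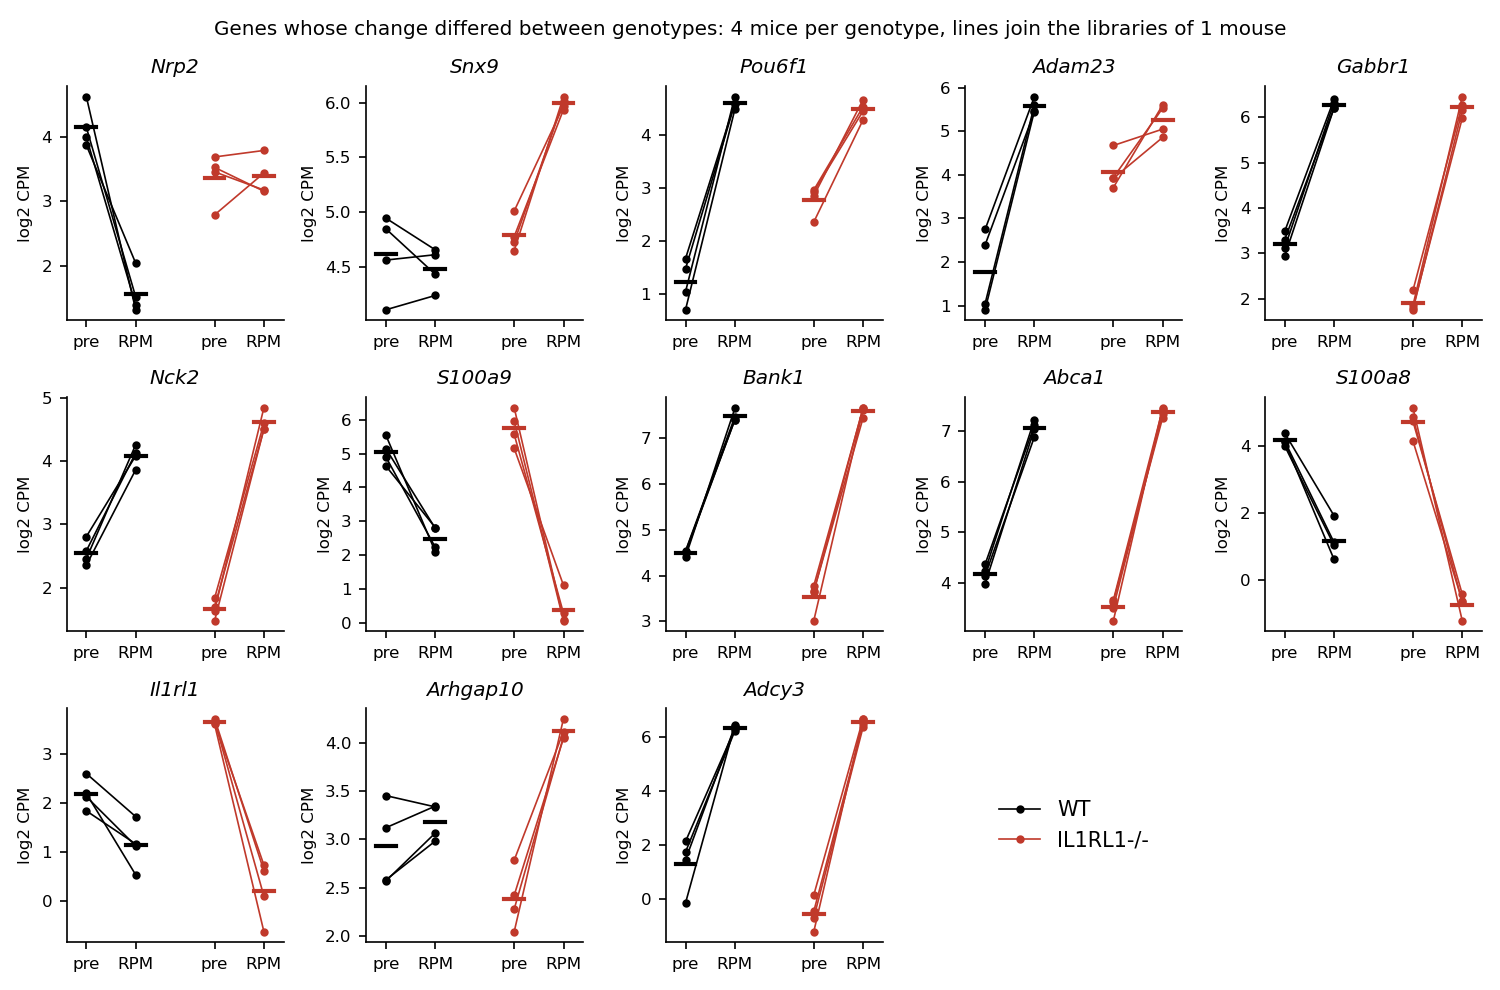
Level (log2 CPM, with a prior count of 2) of the 13 genes in each library of WT mice (black) and of mice labelled IL1RL1-/- (red), with lines that join the pre-RPM and RPM libraries of a mouse and bars at the mean of 4. The groups separate at the pre-RPM end for Pou6f1, Adam23, Gabbr1 and Bank1, at the RPM end for Snx9, S100a9 and S100a8, and the means cross for Nrp2, Nck2, Abca1 and Il1rl1.

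Counted over the 13, the genotype difference was larger in pre-RPMs for 8 genes and in RPMs for 5, and it had opposite signs in the 2 cell types for 11. Over the 914 genes at an unadjusted p under 0.05 it was larger in pre-RPMs for 464 (50.8%) and had opposite signs for 766 (83.8%), against 48.0% of all genes tested. Choosing genes by the difference of changes itself favours opposite signs.

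**Figure D3:**
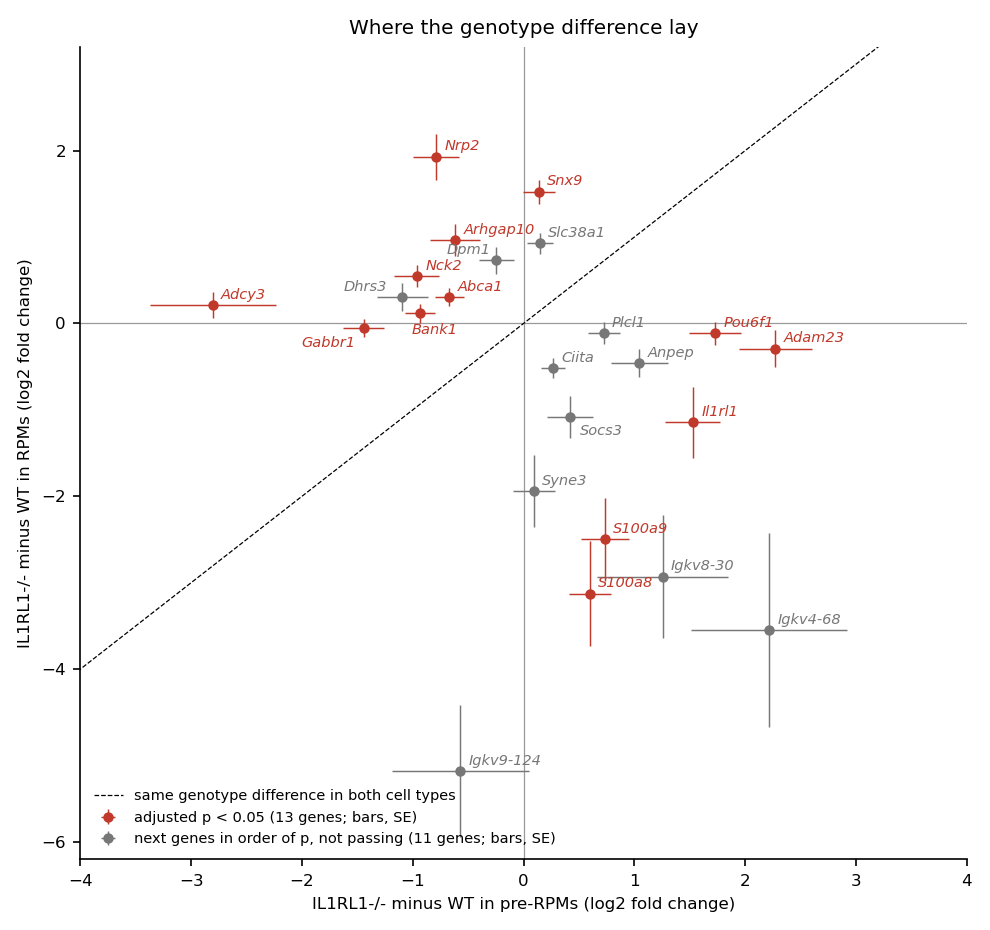
Genotype difference (IL1RL1-/- label minus WT, log2 fold change, bars SE, 4 mice per group) in pre-RPMs (horizontal) and RPMs (vertical) for 24 of the 25 genes with the smallest p, of which 13 passed. The vertical distance from the dashed line is the difference of changes; Adcy3, Gabbr1, Pou6f1 and Adam23 lie close to 0 on the RPM axis, and Snx9 and Syne3 close to 0 on the pre-RPM axis.

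The 12 genes that followed in order of p did not pass (edgeR adjusted p from 0.0556 to 0.165). They held Anpep, the aminopeptidase CD13, with a difference of changes of -1.504 ± 0.30 (SE), and Dhrs3, an enzyme that reduces retinal, with 1.40 ± 0.28. Socs3, the feedback inhibitor of cytokine signalling through STAT3, was at 14.2, 17.6, 10.9 and 12.6 CPM in WT pre-RPMs and 12.6, 14.3, 6.44 and 7.92 CPM in WT RPMs, and at 17.8, 21.1, 17.9 and 16.6 and 5.81, 4.7, 3.18 and 6.13 CPM with the label. Its difference of changes was -1.497 ± 0.32 (SE; edgeR adjusted p = 0.0984, or 0.018 with the animal as a block). Among the other 9 were Ciita, Slc38a1, Dpm1, Syne3, Plcl1 and 3 immunoglobulin kappa variable genes.

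Ciita belongs to the MHC class II pathway, of which 4 genes passed once the libraries of a mouse were paired. Ciita is the transactivator that switches on MHC class II genes, H2-Aa, H2-Ab1 and H2-Eb1 encode the chains that present peptides to CD4+ T cells, and Cd74 is the invariant chain that guards them. Ciita was at 89.6, 93.3, 91.2 and 103 CPM in WT pre-RPMs and 35.7, 50, 40.5 and 40.3 CPM in WT RPMs. With the label it was at 117, 117, 109 and 109.98 CPM and 29.9, 34.2, 22.9 and 29 CPM. It was thus higher in every pre-RPM library with the label and lower in every RPM library (difference of changes -0.78 ± 0.16 SE; edgeR adjusted p = 0.0753, or 0.0284 with the animal as a block).

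The chain genes had values of a like pattern. H2-Eb1 was at 221, 206, 213 and 137 CPM in WT pre-RPMs and 277, 246, 374 and 195 CPM in WT RPMs, and with the label at 297, 263, 242 and 257 and 207, 181, 202 and 186 CPM. Its level was higher in RPMs than in pre-RPMs in all 4 WT mice and lower in all 4 mice with the label. This gave a difference of changes of -0.94 ± 0.23 (SE; edgeR adjusted p = 0.182, or 0.00666 with the animal as a block). For Cd74 the values were 978, 715, 1029 and 691 and 1255, 1070.2, 1835 and 1001 CPM in WT mice and 1158, 1107, 1114 and 1079 and 1061, 945, 1055 and 956 CPM in those with the label. Here the WT change of each mouse was upward and the other slightly downward (difference of changes -0.75 ± 0.23 SE; edgeR adjusted p = 0.347, or 0.0269 with the block). H2-Aa gave -0.85 ± 0.23 (edgeR adjusted p = 0.233, or 0.0354 with the block) and H2-Ab1 -0.71 ± 0.23 (0.359, or 0.0602).

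Of the 10 genes of the list, all tested, 5 had a lower and 0 a higher change at an unadjusted p under 0.05 (beside 3.82% and 3.70% of all genes), none passed without the block, and 4 passed with it (0.206% of all genes passed as lower with the block). The median difference of changes was -0.73 beside 0.01 over all genes, -0.72 without WT pre-RPM replicate 3 and -0.69 without WT RPM replicates 1 and 2. The costimulatory genes Cd80 (0.60 ± 0.32 SE) and Cd86 (0.23 ± 0.19) had differences above 0 that did not pass. B cells and dendritic cells also carry MHC class II. The B cell list had a median difference of changes of -0.04 over 11 genes, and its summed levels are given above. The dendritic cell list summed to 93.2 to 144.2 CPM in WT pre-RPMs and 142.1 to 174.6 CPM with the label. In RPMs it summed to 84.0 to 106.3 and 81.1 to 109.6 CPM, and its median was -0.98 over 8 genes. In pre-RPMs 1 member, Itgax (the gene of CD11c), made up 43, 56.9, 26.5 and 33 CPM of the WT sums. With the label it made up 71, 88.3, 69.1 and 84.5 CPM. Without WT RPM replicates 1 and 2 these medians were 0.76 for B cell and -0.07 for dendritic cell genes. No gene of either list was at 0 in any group, and their part in the MHC class II result was not tested.

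Promoters of this family are known for a shared module that ends in a Y box, the letters that the factor NF-Y binds. The RefSeq promoter table (GRCm38.p6) held 5 of the 10 genes, and the letters TGATTGG (or CCAATCA on the other strand) occur before the start of 3 of them, and in 7.23% of all 32851 promoter windows of 250 bases. The 100 bases before the start of these 3 genes are shown 5' to 3' with the box in capitals.
H2-Aa: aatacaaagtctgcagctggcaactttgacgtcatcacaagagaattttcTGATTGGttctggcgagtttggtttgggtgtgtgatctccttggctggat
H2-Eb1: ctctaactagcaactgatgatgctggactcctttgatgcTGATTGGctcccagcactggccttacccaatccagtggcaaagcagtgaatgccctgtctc
H2-DMb1: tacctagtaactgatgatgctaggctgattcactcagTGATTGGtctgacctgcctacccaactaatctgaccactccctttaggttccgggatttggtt
They lie at chr17:34287824-34287923 (minus strand), chr17:34305767-34305866 (plus strand) and chr17:34153091-34153190 (plus strand), and the box begins 50, 61 and 63 bases before the start. The difference of changes was -0.85 in H2-Aa, and the box is at a like distance in H2-Eb1, where it was -0.94, and in H2-DMb1, a chain of the peptide exchange factor, where it was -0.54 ± 0.37 (SE; edgeR adjusted p = 0.809). A match is only a match of letters. Of the 13 genes that passed, 11 have a promoter in the table and 0 hold the box; the letters AGATAA or TTATCT, which GATA factors bind, occur in 2 of them, Il1rl1 and S100a9, and in 9.99% of all windows.

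**Figure D4:**
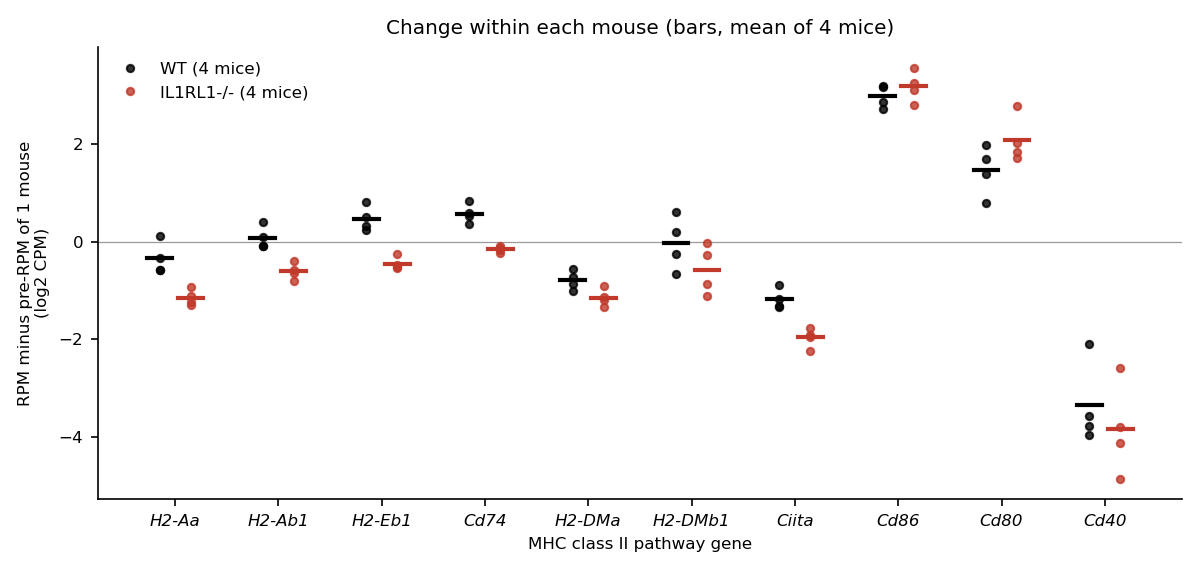
RPM minus pre-RPM change of each mouse (log2 CPM) for 10 MHC class II pathway genes, in WT mice (black) and mice labelled IL1RL1-/- (red), with bars at the mean of 4 mice. The mice separate fully for H2-Aa, H2-Ab1, H2-Eb1, Cd74 and Ciita, and overlap for H2-DMa, H2-DMb1, Cd86, Cd80 and Cd40.

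Immunoglobulin genes, the products of B and plasma cells, had mostly negative differences of changes. The table holds 267 of them, and 61 were counted highly enough to be tested. That filter by itself favours genes that are high in 1 group, and the counts by direction below carry this limit. The median difference of changes was -2.25, or -2.06 with 16 genes at or under the floor in 1 group set to their bound; 59 were lower and 2 higher, 33 and 0 at an unadjusted p under 0.05 (beside 3.82% and 3.70% of all genes), and 9 passed as lower with the animal as a block (0.206% of all genes). Without the block 0 passed (edgeR), and without WT RPM replicates 1 and 2 the median was -1.29, with 13 lower and 1 higher at an unadjusted p under 0.05. Their summed level was 1099, 736, 1007 and 672 CPM in WT pre-RPMs and 950.00, 1548, 559 and 458 CPM in WT RPMs, and 1285, 2013, 1025 and 311 CPM and 475, 242, 115 and 124 CPM in those with the label. The sum was lower in RPMs than in pre-RPMs in all 4 mice with the label and in 3 of 4 WT mice. Variable genes are near-identical copies, so single ones, Igkv9-124 (-4.61 ± 1.07 SE; edgeR adjusted p = 0.165, or 0.000728 with the block) and Igkv8-30 (-4.18 ± 0.93; 0.13, or 0.0116) among them, are uncertain. Igkc, the kappa constant region, was at 330.5, 242, 304 and 212 and 312, 476, 186 and 138 CPM in WT mice and 418, 715, 288 and 90.6 and 150.5, 68.8, 32 and 39.8 CPM with the label (-2.41 ± 0.69 SE; edgeR adjusted p = 0.27, or 0.0332 with the block). The plasma cell list, from which 8 of 10 genes were tested, had a median of -1.80, or -1.38 with 3 members at their bound and -1.08 without WT RPM replicates 1 and 2. It included Jchain, which joins antibody units (-2.19 ± 0.78 SE; edgeR adjusted p = 0.482, or 0.0333 with the block). These genes spread widely between mice of 1 group, and the part of plasma cells was not tested.

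RPM identity genes were next compared, since they define the end point of the maturation. None of the 20 differed at an adjusted p under 0.05 (edgeR), with the block or without it; 13 had a higher and 0 a lower change at an unadjusted p under 0.05, beside 3.70% of all genes with a higher one. The median difference of changes was 0.96 (0.95 with 3 members at their bound), but 0.52 without WT pre-RPM replicate 3. In RPMs the genotypes were close: the summed level was 8042 to 10508 CPM in WT and 10230.1 to 10716 CPM with the label. The median genotype difference of the members was -0.72 in pre-RPMs and 0.15 in RPMs.

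Spic went from 12.9, 8.39, 13.8 and 15.9 to 298, 259.7, 286 and 329.8 CPM in WT mice and from 8.91, 11.6, 11.5 and 11.3 to 335, 415, 343 and 358 CPM in those with the label. Every mouse therefore gained Spic, and the difference of changes was 0.55 (95% interval 0.11 to 0.98; edgeR adjusted p = 0.522). Vcam1, an adhesion molecule that marks RPMs, was at 2.3, 2.1, 41.3 and 8.89 CPM in WT pre-RPMs and 1.64, 3.02, 3.24 and 2.77 CPM in those with the label. Its difference of changes was 2.49 (0.86 to 4.12; edgeR adjusted p = 0.354), and 0.89 without WT pre-RPM replicate 3. Mertk, a receptor for dying cells (1.76, or 0.69 without that library), and Cd163, the scavenger of hemoglobin-haptoglobin (1.196, or -0.01), depended on it likewise, and neither passed. Cd5l, a secreted macrophage protein, had counts of 2, 0, 21 and 7 in WT pre-RPMs and 0, 0, 0 and 1 in those with the label; with the floor in place of the latter, the ratio of RPM to pre-RPM was at least 2.94-fold larger with the label (at least 1.15-fold without WT pre-RPM replicate 3), and the fitted difference did not pass (edgeR adjusted p = 0.255). Adgre1, which encodes the F4/80 antigen of the gates, gave 0.11 (95% interval -0.28 to 0.50; edgeR adjusted p = 0.957), and Treml4, a receptor of red pulp macrophages and patrolling monocytes, -0.07 (-0.40 to 0.27; 0.976), and neither passed.

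Iron and heme genes gave no call among 17 tested of 19, and the median difference of changes was 0.16, or -0.05 without WT RPM replicates 1 and 2. Slc40a1, the iron exporter ferroportin, was at 9.42, 6.29, 27.7 and 19.2 CPM in WT pre-RPMs and 1512, 1320.2, 1678 and 1791 CPM in WT RPMs. With the label it was at 6.33, 6.2, 8.82 and 10.3 and 1964, 2059.98, 1887 and 2224 CPM. The RPM libraries with the label all lay above the WT ones, but the difference of changes, 1.36 ± 0.40 (SE), did not pass (edgeR adjusted p = 0.297). WT pre-RPM replicate 3 was the highest of its group, and WT mouse 3 had the smallest change. The changes of single mice were 7.26, 7.62, 5.90 and 6.51 in WT and 8.18, 8.28, 7.67 and 7.69 with the label (log2 CPM). Hmox1, the heme oxygenase, was at 17.7, 13.9, 63.2 and 26 CPM in WT pre-RPMs and 18.5, 20.4, 20 and 16.6 CPM with the label, and gave 1.05 ± 0.41 (SE; edgeR adjusted p = 0.533), or 0.40 without WT pre-RPM replicate 3. In that library 14 erythroid genes summed to 624 CPM, against 60.7, 50.1 and 124 CPM in the others of its group and 43.4 to 68.2 CPM in pre-RPMs with the label. The part of engulfed or adhering red cells was not tested.

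Monocyte genes had mostly negative differences of changes. Of 18 tested, 0 passed (edgeR), and 12 had a lower and 0 a higher change at an unadjusted p under 0.05, beside 3.82% of all genes with a lower one. The median was -0.93, and -1.03 with 2 members at their bound. It was -0.60 without WT RPM replicate 2 and -0.22 without WT RPM replicates 1 and 2, where 2 genes had a lower and 1 a higher change at an unadjusted p under 0.05. Ccr2, the receptor that brings monocytes out of the marrow, was at 8.72, 13.6, 2.06 and 3.74 CPM in WT RPMs and 4.74, 3.76, 1.7 and 2.45 CPM in those with the label, so replicates 1 and 2 were the highest WT libraries (-1.34 ± 0.45 SE; edgeR adjusted p = 0.424). Fn1, fibronectin, gave -1.66 ± 0.45 (SE; edgeR adjusted p = 0.22), and Ace, the angiotensin-converting enzyme of nonclassical monocytes, -1.91 ± 0.54 (0.265). Itgam, which encodes the CD11b of the gates, was at 1.62, 4.07, 1.29 and 1.54 CPM in WT RPMs and 1.72, 0.94, 1.06 and 0.817 CPM with the label (difference of changes -1.04 ± 0.44 SE; edgeR adjusted p = 0.586), and WT RPM replicate 2 was the highest. Ly6c2, the Ly6C antigen of classical monocytes, gave -1.34 ± 0.61 (0.637). The part of RNA from other cells in these values was not tested.

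All genes tested were also grouped by the size of their mean change. Among 908 genes whose mean change over the genotypes was a rise of 4-fold or more, the median difference of changes was 0.22 and 65.7% were positive. Among 642 with a mean fall of 4-fold or more the median was -0.58 and 80.1% were negative, while for 8832 genes within 2-fold it was 0.01. These are descriptions, with no test: leaving out 1 library moved the medians to between 0.14 and 0.28 for rising and between -0.66 and -0.34 for falling genes, and the ends nearest 0 came without WT pre-RPM replicate 3 and without WT RPM replicate 2. Without WT RPM replicates 1 and 2 together the medians were 0.13 and -0.13, with 57.9% positive and 60.6% negative.

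**Figure D5:**
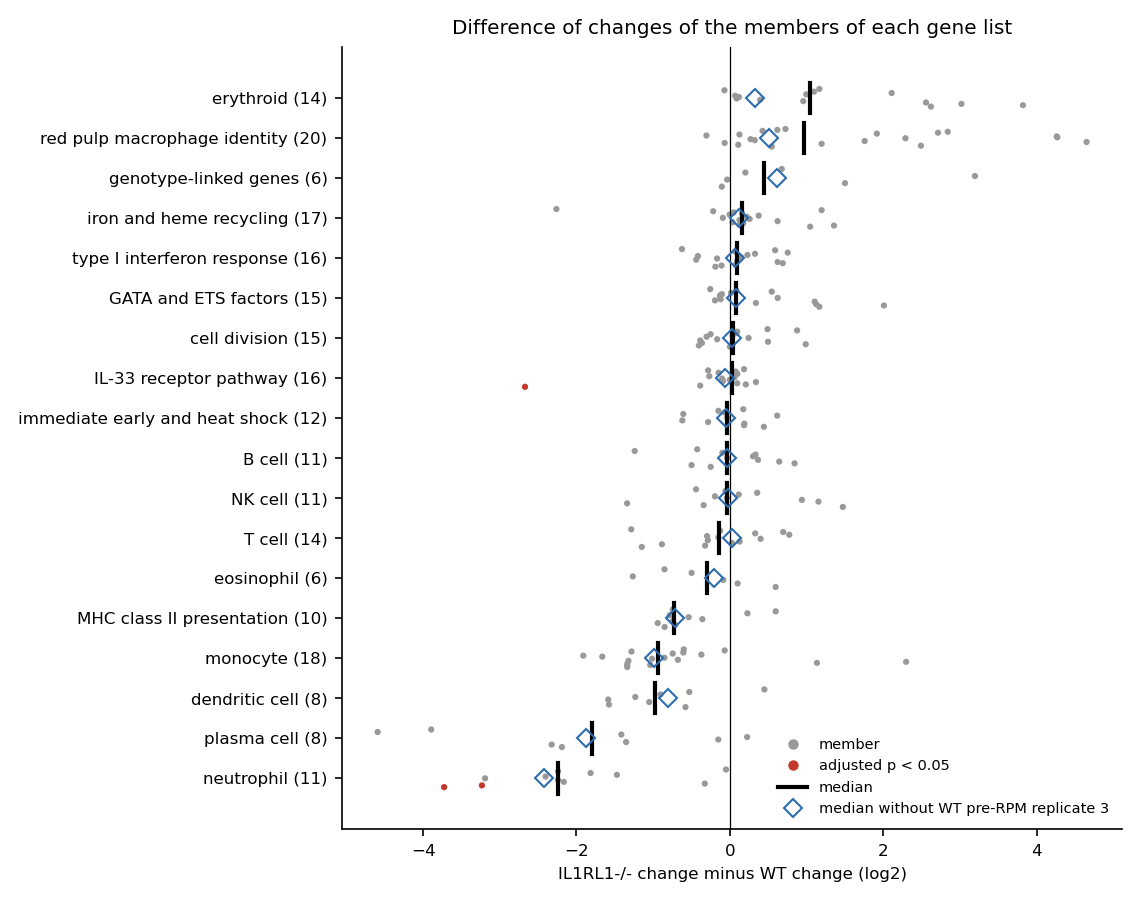
Difference of changes (log2, label IL1RL1-/- minus WT) of the tested members of each gene list with 6 or more of them, the number tested in parentheses, with the median (bar) and the median without WT pre-RPM replicate 3 (diamond). The neutrophil, plasma cell, dendritic cell, monocyte and MHC class II lists lie below 0, the red pulp macrophage and erythroid lists above it, and the diamonds of the last pair lie closer to 0. Without WT RPM replicates 1 and 2, which the plot does not show, the monocyte and dendritic cell medians were -0.22 and -0.07.

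GATA and ETS factors, which the study followed in these cells, gave no call among 15 tested of 16 (median 0.09, or 0.39 without WT RPM replicates 1 and 2). Gata2 was at 9.19, 4.72, 23.2 and 11.9 CPM in WT pre-RPMs and 1.01, 2.71, 0.258 and 1.76 CPM in WT RPMs. With the label it was at 0.937, 1.51, 0.882 and 2.4 CPM in pre-RPMs and 1.94, 0.313, 0.212 and 0.613 CPM in RPMs. The pre-RPM values did not overlap and the RPM values did, and the difference of changes was 2.01 (95% interval -0.04 to 4.05; edgeR adjusted p = 0.683), or 1.52 without WT pre-RPM replicate 3. Basophils and mast cells also use Gata2, and of the 12 genes of their list, Gata2 itself among them, 3 were tested. In WT pre-RPMs the list summed to 25.5, 18.9, 76.7 and 40.5 CPM, of which Gata2 was 9.19, 4.72, 23.2 and 11.9 CPM. The sum, Gata2 included, was 6.6 to 10.1 CPM in pre-RPMs with the label. It was 2.8 to 14.3 CPM in WT RPMs and 1.9 to 9.3 CPM in RPMs with the label. Fcer1a and Prss34 were at 0 in both groups with the label, but their counts in WT pre-RPMs were only 0, 1, 6 and 4 and 0, 1, 5 and 1. Members at 0 numbered 1 in WT pre-RPMs, 3 in pre-RPMs with the label and 2 in RPMs of each genotype. Hdc, another member, had counts of 15, 11, 60 and 28 in WT pre-RPMs and 5, 8, 10 and 11 in those with the label. The part of basophils and mast cells in the Gata2 values was not tested. Gata1 (1.17 ± 0.62 SE; edgeR adjusted p = 0.717), Gata3 (1.13 ± 0.89; 0.856) and Ets1 (0.62 ± 0.36; 0.752) did not pass.

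Of the 13 genes, 4 lie on chromosome 1, all within 25 megabases of Il1rl1. They are Il1rl1 itself, Nck2 (3.06 megabases away), Nrp2 (22.3) and Adam23 (23.1). The window holds 187 of the 12150 genes tested (1.54%) and was set after the positions were seen. Inside it 11.8% of genes had an unadjusted p under 0.05, against 7.46% outside. Slc40a1 (5.47 megabases) and Plcl1 (15.1 megabases; -0.83 ± 0.19 SE; edgeR adjusted p = 0.147, or 0.0285 with the block) also lie in it. Which DNA around the deleted gene comes from another strain in these mice was not examined, so effects of the deletion and of linked sequence cannot be told apart here.

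The remaining lists gave no call (edgeR), but with the animal as a block 1 erythroid gene passed as higher. It was Hba-a1, a hemoglobin chain with a near-identical copy, at 1.15, 1.31, 64.4 and 12.2 CPM in WT pre-RPMs and 234, 139, 3606 and 1307 CPM in WT RPMs, and 0.937, 0.503, 3.53 and 4.61 and 359.6, 100.1, 1359.6 and 2049.5 CPM with the label (2.62 ± 1.68 SE; edgeR adjusted p = 0.787, or 0.00459 with the block). The 2.62 is from the fit without the block. The groups overlapped in both cell types. The changes of single mice overlapped too, at 7.21, 6.33, 5.80 and 6.70 in WT and 8.04, 6.76, 8.42 and 8.67 with the label (log2 CPM). The medians were -0.04 for NK cell (11 genes tested), -0.14 for T cell (14), -0.29 for eosinophil (6), 1.05 for erythroid (14; 0.33 without WT pre-RPM replicate 3, and 0.56 without WT RPM replicates 1 and 2), 0.09 for type I interferon response (16), 0.04 for cell division (15) and -0.03 for immediate early and heat shock genes (12). Without WT RPM replicates 1 and 2 the NK cell, T cell and eosinophil medians were 1.10, 0.84 and 0.37, and those of the interferon, cell division and immediate early lists -0.05, -0.06 and 0.02. Endothelial and stromal genes (3 tested) had 0.28, and the 1 platelet gene tested 0.80. Neighbours and relatives of the receptor gene (4 tested) had 0.22, or 0.70 without that pair. Among them Il1r1, a receptor for interleukin 1, gave -1.99 ± 0.77 (SE; edgeR adjusted p = 0.531). In RPMs Il1r1 was at 14.4, 10.9, 10.8 and 18 CPM in WT and 4.74, 4.07, 4.66 and 5.52 CPM with the label, without overlap. The 6 genes that an earlier analysis of these counts found to differ by genotype in every cell type had 0.44; Golph3l, a Golgi protein, gave 1.502 ± 0.38 (SE; edgeR adjusted p = 0.188). In the dendritic cell list, Itgax, which encodes CD11c, was at 43, 56.9, 26.5 and 33 CPM in WT pre-RPMs and 71, 88.3, 69.1 and 84.5 CPM in those with the label, and gave -0.90 ± 0.22 (SE; edgeR adjusted p = 0.183, or 0.0285 with the block).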

How the data were processed

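RNA-seq libraries (stranded total RNA, pico input) came from 4 WT mice and 4 mice labelled IL1RL1-/-. The authors deposited raw counts per gene name, made with featureCounts 1.6.2 (paired, reverse strand, exons of Ensembl GRCm38 release 95) after STAR alignment; the submitters' processing notes also list Trim Galore 0.50 and cutadapt 2.8. Counts were analysed as deposited with edgeR 4.0.16 in R 4.3.3: filterByExpr (12150 of 54735 genes kept), TMM scaling, 1 coefficient per group and a quasi-likelihood F test of the difference of changes alone, with Benjamini-Hochberg adjustment. Only that difference was tested; levels and changes within a genotype are descriptions. The code was tested on simulated data. Replicates of a group differed beyond sampling noise (smallest chi-square per degree of freedom 3.85). The labels give the pre-RPM and RPM libraries of a genotype the same mouse numbers. Same-numbered libraries deviated together in all 8 mice (r 0.0738 to 0.158), beside -0.189 to 0.0406 in the 24 other pairs. Deviations were taken from group means, so a positive r of the same-numbered pair by itself pushes the other pairs toward negative values. Text names every gene that passed, further genes by p up to 25 (1 of them is not reported here), 16 fixed genes and, per list, its called genes or the 2 with the smallest p; other genes were named after their values were seen. Members and lists were chosen with earlier results of these data known. Alternatives: DESeq2 1.42.0, RLE scaling, other filters, all 24 RNA-seq libraries, blocks and libraries left out. The 24 ATAC-seq samples were not analysed here.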

Additional observations from a re-analysis of the deposited data

Results flagged for a closer look

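A difference between the genotypes under the same pre-RPM to RPM contrast marked the 13 genes that passed, with these differences of changes (log2): Nrp2 2.72, Snx9 1.39, Pou6f1 -1.84, Adam23 -2.56, Gabbr1 1.39, Nck2 1.51, S100a9 -3.23, Bank1 1.05, Abca1 0.98, S100a8 -3.73 (fitted, with 1 group at the floor), Il1rl1 -2.67, Arhgap10 1.58 and Adcy3 3.02.

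In 8 of 140 groups of 4 libraries examined, 1 library stood far from the other 3 (Dixon's test; chance gives about 1 in 20). WT pre-RPM replicate 3 was high in the sums of the RPM identity list (529 CPM), the erythroid list (624 CPM) and the endothelial and stromal list (30.2 CPM). IL1RL1-/- RPM replicate 1 was high in S100a9 (1.72 CPM), the monocyte list (383 CPM) and the T cell list (127 CPM). IL1RL1-/- RPM replicate 2 was low in the iron and heme list (6614 CPM), and IL1RL1-/- pre-RPM replicate 1 was high in the immediate early and heat shock list (592 CPM).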

How the results depend on the processing

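Of the 13 genes, 10 passed in each of the 16 fits without 1 library; the exceptions were Il1rl1 (14 of 16), Arhgap10 (7) and Adcy3 (4). Those fits called 10 to 18 genes, 6 to 9 higher and 4 to 10 lower. DESeq2 called 36 (13 higher, 23 lower), all 13 included. Keeping every gene with at least 1 count called 224 of 35532 (78 and 146). At least 10 counts in every library left 5 (5 and 0; 514 at an unadjusted p under 0.05), since 8 of the 13 were no longer tested. One fit over all 24 libraries, monocytes included, called 3 (2 and 1: Nrp2, Snx9 and Il1rl1); the cause was not tested. The animal as a replicate block called 36 (11 and 25) and lost Adcy3. The mouse number as a replicate block across genotypes called 24 (9 and 15). What same-numbered mice of the 2 genotypes share, the labels do not give, and it was not tested. RLE scaling and leaving out Gm42418 each called 14, with all 13 kept. Leaving out both libraries of a mouse, an alternative added after seeing the data, gave 4 (2 and 2) without IL1RL1-/- mouse 2, keeping Nrp2, Snx9, Pou6f1 and Adam23, 8 (5 and 3) without IL1RL1-/- mouse 3, and 5 higher genes without WT mouse 1 or IL1RL1-/- mouse 1. No called gene reversed. Among uncalled genes, 3 crossed 0 without a library: Adgre1 (-0.000342 to 0.22 over the libraries left out), Cd163 (-0.0113 to 1.55) and Treml4 (-0.14 to 0.0145). Leaving out WT RPM replicates 1 and 2, also added, gave 7 (4 and 3) and lost S100a9, S100a8, Bank1, Abca1, Arhgap10 and Adcy3 (edgeR adjusted p 0.0746 to 0.121), with 2 libraries left in that group. Of 569 list medians recomputed, added settings included, 36 moved by more than the spread between mice. At these depths a gene under 0.563 CPM before TMM scaling has under 3 counts, so differences among levels that were all this low were not detectable. After that scaling 3 counts could be as low as 0.47 CPM (IL1RL1-/- RPM replicate 2).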

Other observations

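The blocked fit added 24 genes to the 12 it kept, 20 lower and 4 higher with the label, and 9 of them were immunoglobulin genes and 4 MHC class II pathway genes. Siglec1, the sialoadhesin of macrophages that sit at the edge of the white pulp, was one of the 4 higher: it went from 17.5, 18.9, 26.5 and 25 to 31.4, 37.4, 41.8 and 40.7 CPM in WT mice and from 18.5, 17.1, 32.1 and 28.6 to 51, 52.3, 91.8 and 74.8 CPM in those with the label (0.72 ± 0.30 SE; edgeR adjusted p = 0.567, or 0.044 with the block). The RPM values did not overlap. Adgrl3, an adhesion receptor, was at 0.919, 3.15, 3.14 and 1.4 CPM in WT pre-RPMs and 5.62, 6.2, 5 and 8.67 CPM in those with the label, with no overlap, and at 35.7 ± 6.45 and 38.7 ± 6.61 CPM in RPMs (-1.49 ± 0.37 SE; edgeR adjusted p = 0.183, or 0.0413 with the block). Fndc1, which encodes a protein with fibronectin repeats, was in RPMs at 22.7, 15.5, 21.9 and 14.7 CPM in WT and 9.69, 10.3, 6.78 and 4.29 CPM with the label (edgeR adjusted p = 0.182, or 0.0224 with the block). These genes were picked after their values were seen.

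Splenic monocytes (Ly6Glo CD11bhi F4/80-) of the same mice, scaled with all 24 libraries, give the level before the pre-RPM stage. Of the 13 genes, 12 overlapped between the genotypes in monocytes and 1 did not, beside 2.35% of all genes tested without overlap. The exception was Il1rl1, at 3.21 ± 1.05 CPM in WT monocytes and 14.1 ± 1.45 CPM in those with the label (SD, n = 4). Pou6f1, higher in pre-RPMs with the label, was at 4.31 ± 2.35 and 8.60 ± 2.10 CPM in monocytes, and Gabbr1, lower in pre-RPMs with the label, at 16.4 ± 6.43 and 13.1 ± 5.76 CPM. The overlap of Pou6f1 was very narrow, with a highest WT value of 6.821 CPM and a lowest value with the label of 6.816 CPM. S100a9 was at 525 ± 233 and 537 ± 189 CPM in monocytes, far above either later stage. These values carry no test.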
